A study of Mus musculus with 6 samples.

Results

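The serpins, a family of protease inhibitors and related proteins, were examined in medullary thymic epithelial cells (mTECs) with and without Mbd1. Members were the genes whose symbol in the authors' array matrix begins with Serpin. There were 54 such genes among 21538 with a symbol, measured by 73 probes, and the probe with the highest mean over the 6 matrix columns stood for its gene. By clade, the letter in the symbol, 20 belonged to clade a, 24 to clade b, 2 each to clades e, f and i, and 1 each to clades c, d, g and h. Of the 54 genes, 51 were tested: their probe was marked well above background by 3 or more of the 6 scanner arrays.

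The wild type group comprised 3 arrays of mTECs from Mbd1 wild type mice and the knockout group 3 arrays from Mbd1 knockout mice, all 30 days old. The design text states 4 biological replicates for each genotype, of which 1 each was dropped for quality. Live cells were sorted as positive for EpCAM and MHC class II and negative for CD45, CD11c and Ly51, and amplified RNA of each sample went onto a 1-colour Agilent array with the dye Cy3. The sources used here do not give the strain, the sex or the kind of knockout allele. They also do not say whether a replicate was a single mouse or a pool, so the p-values measure the spread between these arrays, which may in part be technical.

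Serpins share a fold in which an exposed loop serves as bait for a protease; cleavage of the loop traps the enzyme in an inactive complex. Clade a holds mostly secreted proteins, many of them plasma proteins made by the liver. Clade b holds mostly intracellular inhibitors of epithelia and leukocytes, and the small clades include inhibitors of clotting, fibrinolysis and complement. Some members no longer inhibit proteases and instead carry hormones or fold collagen. mTECs transcribe many genes of other organs, so plasma serpins are measured here as possible tissue antigens, and clade b members as genes that epithelial cells also use themselves. The Mbd1 protein binds CpG dinucleotides that are methylated.

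All values below are log2 signals of the authors' matrix, and a difference is the mean of the columns named KO minus the mean of those named WT. Mbd1 itself read 8.83, 8.60 and 9.0 in columns WT 1 to 3 and 5.64, 5.61 and 5.60 in columns KO 1 to 3, a difference of -3.19 (SE 0.19; limma, adjusted p = 3.85e-05). At this probe the knockout columns lay near the background level of 5.48 to 5.62 (the 95th percentile of probes never above background). The other Mbd1 probes read -2.96 and, at the dimmest, -0.98, and the mean over its probes gave -2.38. The titles of the scanner files did not follow the matrix columns: 5 of the 6 columns had a rank correlation of 1.0 with a scanner array, and in none of these was it the array of the same title. Column KO 1 matched no array. The arrays titled WT 1 and WT 3 matched columns KO 2 and KO 3, in which Mbd1 was low. Those titled KO 1 and KO 3 matched columns WT 2 and WT 3, in which it was high. The array titled WT 2 matched column WT 1, so the arrays titled WT held both high and low Mbd1. The labels alone do not settle which naming is right. Directions below follow the column names, under which Mbd1 is low in every KO column. All 15 measured mTEC markers were above background, Aire among them, and none of the lists of other cell types was at background. The 12 tested thymocyte and T cell markers were all higher in the KO columns (median 0.45), with a summed signal of 11.75 to 12.15 in WT and 12.54 to 12.79 in KO. Summed cortical epithelial markers read 14.88 to 15.11 in WT and 15.23 to 15.60 in KO. The summed signals of B cell, dendritic cell, neutrophil and mast cell, fibroblast and endothelial markers overlapped between the groups. No marker of these lists passed, Rag2 and Siglech alone were not above background, and the part of these cells in the Serpin values was not tested. In bulk RNA, fewer cells of a type and less RNA per cell cannot be told apart.

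No Serpin gene passed between the genotypes, and most members read slightly lower in the KO columns. When genotypes were taken from the scanner titles, 17 of 49 members were below 0, beside 34.4% of all genes. Those titles put columns KO 2 and KO 3 in WT and columns WT 2 and WT 3 in KO. A turned sign is therefore largely built into that fit, which is no independent check of the direction. Over all tested genes, 17 of 18636 passed at an adjusted p under 0.05 (0.0912%; limma with Benjamini-Hochberg adjustment), 15 of them higher in KO (0.0805%) and 2 lower (0.0107%), and 0 of the 51 Serpin genes were among them, with a lowest adjusted p of 0.999. At an unadjusted p under 0.05 there were 4 Serpin genes (7.84%), all lower in KO, beside 4.08% of all genes, of which 2.04% lower and 2.03% higher. Trend and robust moderation in limma left 2, and leaving out 1 column at a time gave between 0 and 5, the 0 without column WT 2. The difference was below 0 for 38 of 51 members (74.5%), beside 51.4% of all genes, and the median was -0.12 beside -0.01. In 5 members every KO column lay under every WT column and in 2 above, 13.7% in all beside 8.22% of all genes (4.29% under and 3.93% above). A difference of at least 0.5 in size was found for 5 members, beside 4.72% of all genes. The authors' deposited table likewise listed 0 of the 73 Serpin probes at an FDR under 0.05.

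The intervals of most members left out 2-fold. For 45 of the 51 members the 95% interval of the difference lay within -1 and 1 on the log2 scale, which is 2-fold either way. The other 6 were Serpinh1, whose interval reached 1.44, and Serpina7, Serpina3c, Serpina3b, Serpinb11 and Serpinb3a, whose intervals reached -1.08 to -1.0. The half-widths of the intervals ran from 0.40 to 0.82. Since 5 of the 6 columns equal in rank the spot signal before background subtraction, differences of dim probes may be understated.

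**Figure D1:**
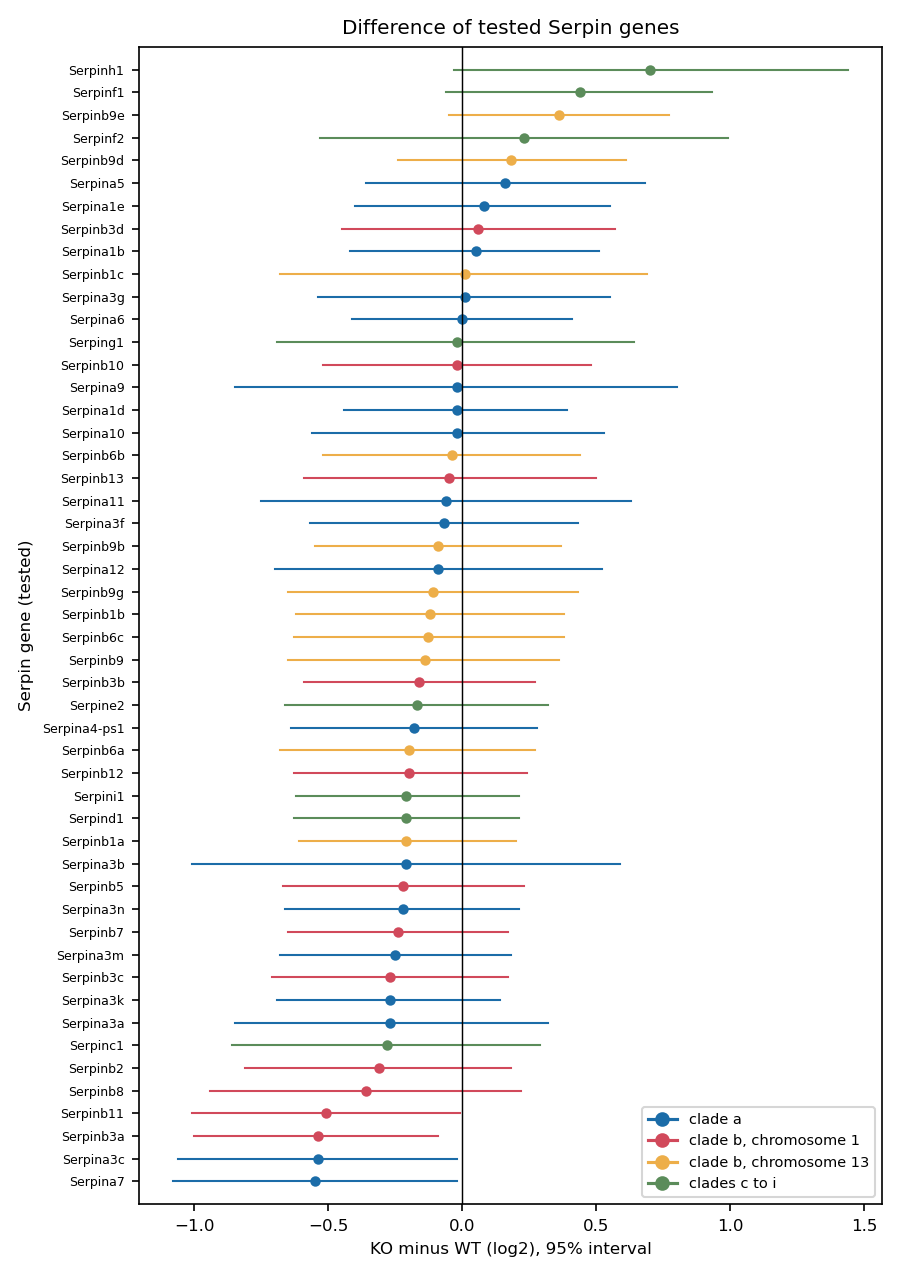
Difference (KO minus WT, log2, x axis) of 50 of the 51 tested Serpin genes (y axis) with its 95% interval, coloured by clade and chromosome. Points run from -0.55 for Serpina7 to 0.70 for Serpinh1, 38 lie left of 0 and 4 intervals leave out 0.

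The shift to lower values was small, and its size differed between columns. The median over members of each column's deviation from the gene's own mean was 0.0, 0.09 and 0.09 in WT 1 to 3, and -0.19, -0.02 and -0.03 in KO 1 to 3. Column KO 1 was the lowest, and it is the column that matched no scanner array. Without KO 1 the median difference was -0.10, with 32 of 51 members below 0. Without KO 2 it was -0.20, with 42 below 0. Only 1 of the scanner slides held columns of both genotypes, and with slide as a block the estimate rests on WT 1 against KO 2 and KO 3. It then read -0.04, with 32 of 51 members below 0, beside 48.6% of all genes and a median of 0.01 over them. Under the scanner titles as genotypes, 17 of 49 members were below 0, beside 34.4% of all genes, and the median was 0.11, beside 0.12 for all genes.

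The 250 bases before the RefSeq start site (GRCm38.p6, gene strand, 5′ to 3′) are shown for 4 members, with CpG in capitals because Mbd1 binds methylated CpG. They are Serpinh1 (chr7:99353240-99353489, minus strand), the member of highest difference, Serpinb9e (chr13:33249358-33249607, plus strand), the clade b gene above WT in every KO column, Serpina7 (chrX:139085220-139085469, minus strand), the member of lowest difference, and Serpinb3a (chr1:107052304-107052553, minus strand), that of smallest p.
Serpinh1: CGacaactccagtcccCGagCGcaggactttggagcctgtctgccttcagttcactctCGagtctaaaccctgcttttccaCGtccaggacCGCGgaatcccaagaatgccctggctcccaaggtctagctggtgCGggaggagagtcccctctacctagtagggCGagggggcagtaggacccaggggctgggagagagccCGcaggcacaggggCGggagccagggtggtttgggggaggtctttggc
Serpinb9e: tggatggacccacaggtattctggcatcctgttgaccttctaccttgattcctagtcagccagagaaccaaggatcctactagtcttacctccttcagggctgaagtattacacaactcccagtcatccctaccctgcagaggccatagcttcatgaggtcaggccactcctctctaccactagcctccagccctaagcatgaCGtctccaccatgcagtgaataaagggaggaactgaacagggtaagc
Serpina7: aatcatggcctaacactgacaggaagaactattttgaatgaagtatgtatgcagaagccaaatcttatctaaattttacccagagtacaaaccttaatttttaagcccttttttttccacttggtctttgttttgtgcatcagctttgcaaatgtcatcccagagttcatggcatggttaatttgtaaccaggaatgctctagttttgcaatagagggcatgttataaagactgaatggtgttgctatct
Serpinb3a: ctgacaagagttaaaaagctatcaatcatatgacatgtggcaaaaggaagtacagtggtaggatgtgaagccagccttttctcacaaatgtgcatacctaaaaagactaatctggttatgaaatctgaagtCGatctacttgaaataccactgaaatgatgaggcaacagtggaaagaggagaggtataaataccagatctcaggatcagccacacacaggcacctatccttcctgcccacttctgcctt
Serpinh1 had 11 CpG in this window, Serpinb9e and Serpinb3a 1 each and Serpina7 0. Methylation was not measured here.

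RefSeq promoters (250 bases before to 50 after the start) were found for 44 of the 54 members, and they were poor in CpG. Their median was 4 CpG per promoter, beside 8 over 27025 genes, where each gene counted once by its promoter with the most CpG. Only 6 of the 44 (13.6%) held 10 or more, beside 45.8% of all genes. These were Serpine2 with 41, Serpinb6a with 25, Serpinh1 with 16, Serpini1 with 15, Serpina3a with 11 and Serpinb6c with 10. The clade b genes on chromosome 1 were the poorest: 6 of 11 had 0 CpG, beside 5.4% of all genes. A TATAAA box (6 letters, either strand) was present in 14 Serpin promoters (31.8%), 7 of them in that same group, beside 13.7% of all genes. The sequence GAANNTTC, the core of a heat shock element, was in 5 Serpin promoters, Serpinh1 not among them, and in 7.84% of all genes. A match of letters is a description of the sequence and not a binding site.

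The differences had little relation to CpG content. Spearman's rho between the CpG count and the difference was 0.18 over the 41 tested members with a promoter and 0.04 over 13945 tested genes, as a description across genes that are not independent. The 6 members with 10 or more CpG had a median difference of -0.18 and the 35 others -0.11. Serpinh1 and Serpine2, with many CpG each, read 0.70 and -0.17.

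**Figure D2:**
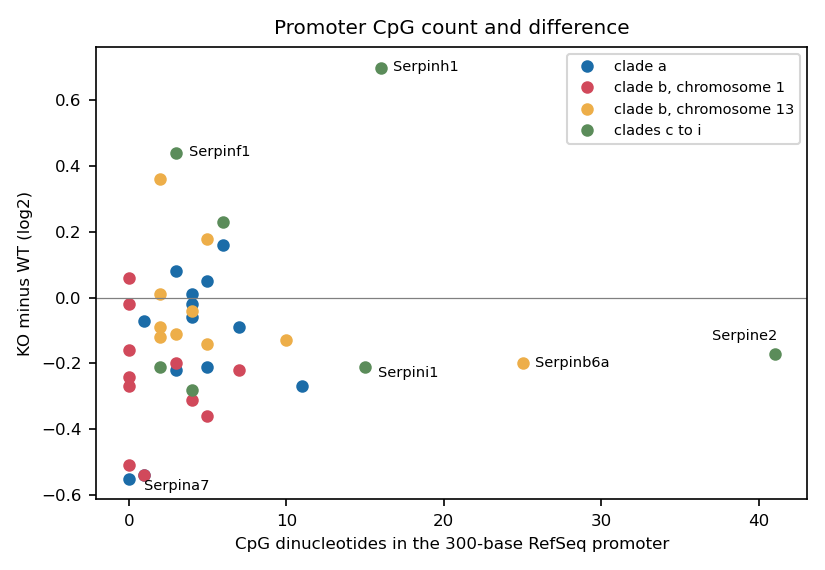
CpG dinucleotides in the 300-base RefSeq promoter (x axis, count) against the difference KO minus WT (y axis, log2) for the 41 tested Serpin genes with a promoter, coloured by clade and chromosome. Most points lie at 7 CpG or fewer on both sides of 0, and the 6 members with 10 or more spread from -0.27 for Serpina3a to 0.70 for Serpinh1.

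In clade a, which holds mostly secreted proteins such as the plasma serpins of the liver, 19 of 20 genes were tested and 0 passed. Their median difference was -0.07, with 14 below 0 (beside 51.4% of all genes), between -0.55 and 0.16, and 2 had an unadjusted p under 0.05 (beside 4.08% of all genes). All 20 but Serpina7 (on the X chromosome) lie in a run of serpin genes on chromosome 12, in which RefSeq lists 28. Without column KO 2 the clade's median was -0.23, and without WT 3 it was 0.02.

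Serpina7, thyroxine-binding globulin, a hormone carrier of plasma, had the lowest difference of the family. It read 9.37, 10.24 and 9.84 in WT 1 to 3 and 9.32, 9.43 and 9.04 in KO 1 to 3. WT 1 lay under KO 2, so the groups overlapped. The difference was -0.55 (SE 0.24, 95% interval -1.08 to -0.02), or 0.683-fold, and did not pass (limma, unadjusted p = 0.0439, adjusted p = 0.999). With the slide as a block it read -0.13, and without WT 2 -0.34. The other hormone carrier, Serpina6, which binds glucocorticoids, had 6 values from 6.67 to 6.91, and its difference was 0.0 (95% interval -0.41 to 0.41).

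The antitrypsins, relatives of the elastase inhibitor of human plasma, had differences close to 0. Serpina1b read 0.05, Serpina1d -0.02 and Serpina1e 0.08, each with an SE between 0.19 and 0.22. Serpina1d kept within 7.37 to 7.63 over all 6 columns. Serpina1f was at background on all 6 scanner arrays, with values from 5.16 to 5.64, and was not tested. Serpina1b, Serpina1d and Serpina1e are near-identical copies in the mouse, so their probes may share transcripts and single members are uncertain.

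The antichymotrypsin group, expanded in the mouse to many Serpina3 copies, read lower in KO for 7 of its 8 tested members. Serpina3c had 6.26, 6.51 and 6.41 in WT and 6.01, 6.20 and 5.35 in KO. All KO values lay under all WT values, and KO 3 was lowest, under its column's background level of 5.58. The difference was -0.54 (SE 0.24; limma, adjusted p = 0.999), and -0.29 without KO 3. Serpina3k and Serpina3m read -0.27 and -0.25, Serpina3a -0.27, Serpina3n -0.22, Serpina3b -0.21 and Serpina3f -0.07. The same limit on near-identical copies holds for this group. Serpina3g, an inhibitor of cysteine cathepsins also made by lymphocytes, was the exception at 0.01, with 11.97, 11.84 and 12.13 in WT and 12.26, 11.43 and 12.27 in KO. KO 2 alone stood low for Serpina3g. The T cell markers, higher in all 3 KO columns in sum, were given above, and their part in this gene's values was not tested.

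Several clade a genes varied more within a genotype than between genotypes. Serpina3b, which read 5.94 in WT 1 and 7.65 in WT 2, had a residual SD at the 98.6th percentile of all genes. Serpina9, a serpin of germinal centre B cells, read 8.60, 9.34 and 9.83 in WT and 9.03, 10.07 and 8.60 in KO, at the 98.9th percentile, with a difference of -0.02. With the slide as a block its difference was 0.73. The 11 B and plasma cell markers summed to 12.85 to 13.10 in WT and 12.78 to 13.09 in KO, a sum in which Xbp1, Cd79b and Cr2 are the brightest. Pax5 read 6.83, 7.65 and 7.79 in WT and 7.77, 8.05 and 7.24 in KO. Pax5, Blk, Cd79a and Cr2 were highest in KO 2, as Serpina9 was, and the other markers of the list were highest in other columns. The part of B cells in the Serpina9 values was not tested. Serpina11 ranged over 1.20 and Serpina12, vaspin, over 1.14, with differences of -0.06 and -0.09. Serpina10, an inhibitor of clotting factor X dependent on protein Z, read -0.02. Serpina5, the protein C inhibitor, read 0.16 at its brightest probe and -0.43 at the other. The pseudogene entry Serpina4-ps1 read -0.18.

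Clade b genes, the intracellular serpins of epithelia and leukocytes, lie in runs on chromosome 1 and chromosome 13, each with 12 members on the array. On chromosome 1, 11 of 12 members read lower in KO (beside 51.4% of all genes), with a median of -0.23, and in 3 of them every KO column lay under every WT column (beside 4.29% of all genes). On chromosome 13, 8 of 11 tested members read lower, with a median of -0.11. None of the 23 passed. The median on chromosome 1 stayed between -0.27 and -0.16 when a column was left out and was -0.17 with the slide as a block, with 10 of 12 below 0. On chromosome 13 it moved to 0.03 without WT 1. Under the scanner titles the chromosome 1 genes had a median of 0.08, with 5 of the 11 that had a value below 0, beside 0.12 and 34.4% for all genes. Whether the runs differ from each other was not tested, since members of a run are not independent.

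**Figure D3:**
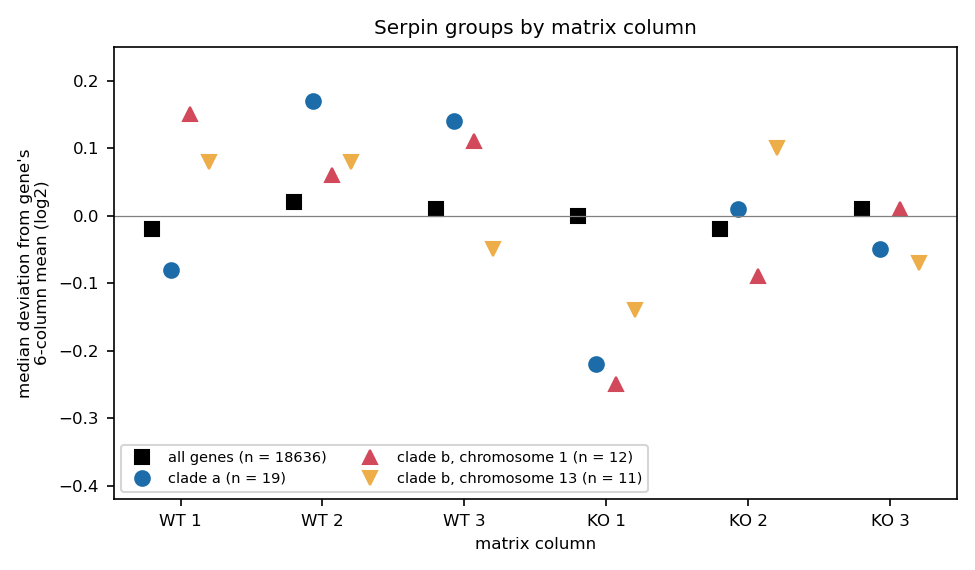
Median deviation of a group's genes from each gene's own 6-column mean (y axis, log2) in each matrix column (x axis), for all 18636 tested genes, the 19 tested clade a genes and the clade b genes on chromosome 1 (12) and chromosome 13 (11). Column KO 1 is lowest for each Serpin group (-0.22, -0.25 and -0.14), while all genes stay between -0.02 and 0.02.

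Serpinb3a, one of the mouse relatives of the human squamous cell carcinoma antigens, had the smallest p of the family. It read 8.03, 7.78 and 7.51 in WT and 7.17, 7.42 and 7.09 in KO. The groups did not overlap, though WT 3 and KO 2 were close. The difference was -0.54 (SE 0.21, 95% interval -1.0 to -0.09; limma, unadjusted p = 0.0239, adjusted p = 0.999). Its other probe, also above background on all 6 arrays, read -0.03 (SE 0.25), and the mean over both gave -0.29. With the slide as a block the brightest probe read -0.77. Of its neighbours, Serpinb3c read -0.27 at 1 probe and -0.49 at the other, Serpinb3b -0.16, and the dim Serpinb3d 0.06. These 4 are close copies as well.

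Serpinb11, a clade b serpin expressed in epithelia, read 10.42, 10.55 and 10.24 in WT and 9.97, 9.48 and 10.23 in KO. WT 3 and KO 3 lay next to each other, and KO 2 was lowest. The difference was -0.51 (SE 0.23; limma, adjusted p = 0.999), and -0.31 without KO 2. Serpinb7, megsin, an epidermal inhibitor, was far tighter. It had 8.55, 8.61 and 8.51 in WT and 8.18, 8.35 and 8.42 in KO, a difference of -0.24 (95% interval -0.65 to 0.17) without overlap. The interval is wide for such close values because limma pools the spread over genes.

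**Figure D4:**
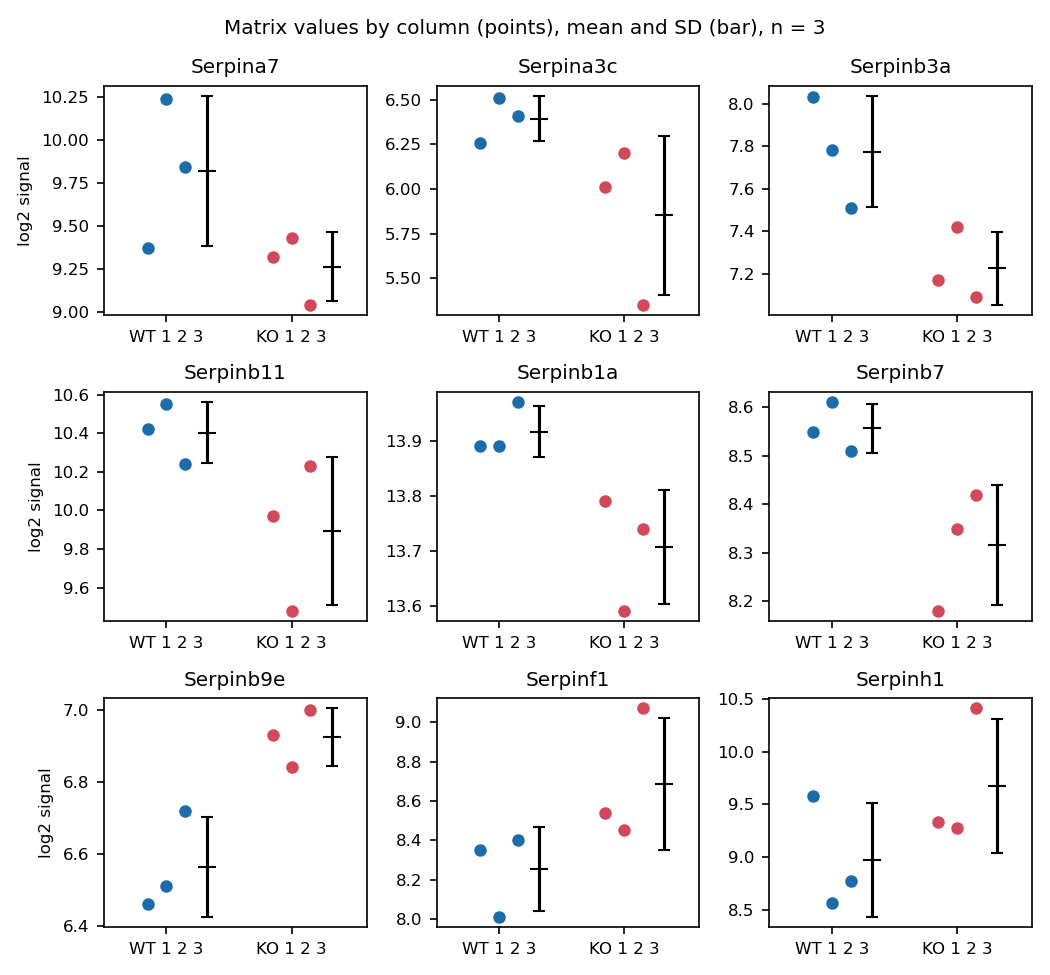
Matrix values (y axis, log2 signal, a separate scale per gene) of 9 Serpin genes in columns 1 to 3 of WT (blue) and KO (red), with the mean and SD of each group (n = 3) in black. Serpina7 and Serpinh1 overlap between the groups, and none of the 9 passed. The other 7 were shown because they are all the members without overlap among the 51 tested (13.7%, beside 8.22% of all genes).

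The other epithelial members on chromosome 1 also had differences below 0 without passing. Serpinb2, plasminogen activator inhibitor 2, read 11.50, 12.23 and 11.80 in WT and 11.44, 11.72 and 11.44 in KO, a difference of -0.31, and its other probe gave -0.42. Serpinb8 read -0.36 and -0.23 at its probes. Serpinb5, maspin, a non-inhibitory serpin of epithelia, read -0.22 (8.0 ± 0.23 in WT and 7.79 ± 0.18 in KO; SD, n = 3). Serpinb12 read -0.20 and, at its other probe, -0.50; its brightest spot was marked uneven on 2 arrays. Serpinb13, an epidermal inhibitor of cathepsins, read -0.05, and Serpinb10, known from blood cells, -0.02.

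On chromosome 13 the bright members of the Serpinb1 group had small differences. Serpinb1a, with 13.89, 13.89 and 13.97 in WT and 13.79, 13.59 and 13.74 in KO, did not overlap, yet the difference was -0.21 (95% interval -0.61 to 0.20), or 0.866-fold. Its residual SD was at the 1.74th percentile of all genes. Serpinb1c read 14.05, 14.38 and 13.57 in WT and 13.93, 13.42 and 14.67 in KO, at the 94.9th percentile, with 0.01 at this probe and -0.24 at the other. Serpinb1b read -0.12.

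Serpinb9, the inhibitor that shields cells from granzyme B, read 10.08, 10.24 and 10.21 in WT and 9.95, 10.48 and 9.67 in KO. The KO columns lay on both sides of the WT columns, and the difference was -0.14 (95% interval -0.65 to 0.36). Granzyme B itself, Gzmb, read -0.50 (SE 0.24; limma, adjusted p = 0.999). Serpinb9e, a copy of Serpinb9, was the only clade b gene above WT in every KO column. It had 6.46, 6.51 and 6.72 in WT and 6.93, 6.84 and 7.0 in KO, a difference of 0.36 (SE 0.19; limma, adjusted p = 0.999). Serpinb9d read 0.18 and Serpinb9b -0.09, both at dim probes, and Serpinb9g -0.11. Serpinb9c was above background on 2 of 6 arrays, with 5.49 to 5.60, and was not tested.

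The Serpinb6 genes, cytosolic inhibitors of trypsin-like proteases, read -0.20 (Serpinb6a), -0.04 (Serpinb6b) and -0.13 (Serpinb6c). The second Serpinb6a probe read 0.12. The Serpinb6b spot was marked uneven by the scanner software on all 6 arrays, so its values of 12.36 to 12.92 carry that limit.

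In clades c to i, which hold clotting, complement and collagen serpins, 9 of 10 genes were tested, 4 read higher and 5 lower, and 0 passed. Serpinc1, antithrombin, read 11.81, 11.35 and 11.01 in WT and 10.96, 10.81 and 11.56 in KO, a difference of -0.28 at this probe and 0.03 at the other. Leaving out a column moved the first between -0.07 (without WT 1) and -0.51 (without KO 3). Serpind1, heparin cofactor II, read -0.21. Serpine2, protease nexin 1, read -0.17, and Serpini1, neuroserpin, -0.21. With the slide as a block Serpind1, Serpine2 and Serpini1 read -0.03, -0.01 and 0.02, and without KO 3 Serpine2 read 0.01. Serpini2 was above background on 1 array, with WT 1 at 6.15 and WT 2 at 5.21, and was not tested.

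Serping1, the inhibitor of complement C1, spread widely over the KO columns: 8.42, 9.21 and 7.78, beside 8.37, 8.60 and 8.51 in WT. Its difference was -0.02 and its residual SD at the 93.9th percentile. Serpinf2, the inhibitor of plasmin, read 5.71, 6.28 and 6.98 in WT and 7.12, 6.62 and 5.93 in KO, a range of 1.40 with a difference of 0.23, which was -0.07 without WT 1, -0.05 without KO 1 and 0.56 without WT 3. In all, 7 of the 51 members (13.7%) had a residual SD above the 90th percentile of all genes.

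Serpinh1 and Serpinf1, which are linked to collagen and to stroma in other tissues, had the highest differences of the family. Serpinh1, the collagen chaperone Hsp47, read 9.58, 8.56 and 8.77 in WT and 9.33, 9.28 and 10.41 in KO. KO 3 was highest, and WT 1 lay above the other KO columns. The difference was 0.70 (SE 0.34, 95% interval -0.03 to 1.44), or 1.63-fold, and did not pass (limma, unadjusted p = 0.059, adjusted p = 0.999). It was 0.34 without KO 3, 1.01 without WT 1 and 0.26 with the slide as a block. Serpinf1, pigment epithelium-derived factor, read 8.35, 8.01 and 8.40 in WT and 8.54, 8.45 and 9.07 in KO, 0.44 (SE 0.23; limma, adjusted p = 0.999) without overlap, and 0.25 at its other probe. Without KO 3 it was 0.24.

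Col3a1, a fibroblast collagen, had its highest values in the same columns as Serpinh1. It read 10.49, 9.11 and 9.36 in WT and 10.17, 9.04 and 11.70 in KO. Over the 6 columns Pearson's r with Col3a1 was 0.91 for Serpinh1 and 0.82 for Serpinf1, and Serpinh1 and Serpinf1 had an r of 0.90, all given as descriptions over columns of 2 groups. Col1a2 followed Serpinh1 with an r of 0.78, whereas Col1a1 had -0.74. Of 13 tested partners in collagen folding, 0 passed (16 listed) and their median was 0.03, beside -0.01 for all genes. P4hb, a subunit of the enzyme that hydroxylates collagen, read -0.31 and had an r of -0.83 with Serpinh1. It was named after its values were seen, and no other partner's r with Serpinh1 was computed. The partners went both ways. Leprel2, P4ha2 and Ppib were highest in KO 3, as Serpinh1 was, whereas P4hb, Crtap, Fkbp14 and Leprel1 were lowest there. Summed fibroblast markers read 15.03 to 15.22 in WT and 15.07 to 15.47 in KO. The sum is of unlogged signals, and Acta2 (14.24 to 14.80) is the brightest marker in it. Of the 9 markers listed, Lum, Pdgfrb, Thy1, Pdgfra, Col3a1 and Col1a2 were highest in KO 3, as Serpinh1 was, and Acta2, Dcn and Col1a1 were not. The part of fibroblasts in the Serpinh1 and Serpinf1 values was not tested.

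The correlation between members of a run was low in the median. Over the 6 columns the median Pearson's r was 0.19 for the 153 pairs on chromosome 12, 0.22 for the 66 on chromosome 1 and -0.13 for the 55 on chromosome 13, beside 0.08 for the 956 pairs from different loci, as a description of values that share the same arrays. An r over 0.8 was reached by 10.9% of the pairs on chromosome 13, 5.2% on chromosome 12, 4.5% on chromosome 1 and 4.7% from different loci. The pairs of highest r were Serpina3n with Serpinb2 (0.97), on different chromosomes, Serpinb9 with Serping1 (0.96), also on different chromosomes, and Serpina3k with Serpina3m and Serpina7 with Serpinb2 (0.95 each), of which the former share a run.

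The proteases that serpins inhibit gave no passing gene in any of the 4 lists examined. Of 14 tested genes among 16 listed proteases of clotting, fibrinolysis and complement, 8 read lower, with a median of -0.02. F10, clotting factor X and a target of antithrombin, read 8.29 ± 0.13 in WT and 7.59 ± 0.31 in KO (SD, n = 3), a difference of -0.70 without overlap (limma, adjusted p = 0.698). Thrombin, F2, read 0.31, and Masp2 of the lectin pathway 0.27. Of 11 tested leukocyte and digestive proteases, 7 read lower (median -0.08), with the mast cell chymase Cma1 at -0.60 and granzyme A, Gzma, at 0.40. Of 11 tested epithelial serine proteases, 7 read lower (median -0.12). Klk7, a skin kallikrein, read 0.70 (SE 0.20; limma, adjusted p = 0.617) and St14, matriptase, 0.30, while Prss27 read -0.30. Averaged over their probes, Klk7 read 0.37 and St14 0.05. Of 8 tested cysteine proteases, 5 read lower (median -0.13), with Ctsk at -0.41, Casp1 at -0.22 and Casp8 at -0.18. Without WT 2, Ctsk and Casp8 each read -0.07, and with the slide as a block Ctsk turned to 0.34.

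Receptors and cofactors of serpins also had 0 passing genes among 12 tested, with a median of -0.03. F3, the tissue factor that starts clotting, read 8.53 ± 0.26 in WT and 7.69 ± 0.19 in KO (SD, n = 3), a difference of -0.84 (limma, adjusted p = 0.387). The clearance receptors of the lipoprotein receptor family read 0.46 (Lrp2) and -0.56 (Vldlr, -0.25 without KO 3). Among the collagen folding genes, Leprel2 read 0.31 (0.02 without KO 3), Plod1 -0.20 (0.02 with the slide as a block) and P4ha2 0.20 (0.06 without KO 3).

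Protease inhibitors of other families held the only genes of these lists that passed. Of 29 tested, 2 passed as higher (beside 0.0805% of all genes) and 0 as lower (beside 0.0107%), with a median of -0.08 and 17 below 0. The list was chosen with earlier results of these data known, so its count is no measure of enrichment. Wfdc12 rose by 1.75 (SE 0.20; limma, adjusted p = 0.00542) and Slpi, the secretory leukocyte protease inhibitor, by 1.52 (SE 0.22; limma, adjusted p = 0.0229), and neither is a serpin. Slpi lost its call without WT 2 (1.42), WT 3 (1.44) or KO 1 (1.43), (adjusted p of 0.134 to 0.226), and with dim probes kept in (adjusted p = 0.0614). Averaging its probes gave 0.67 (adjusted p = 0.401). With the slide as a block neither passed (Wfdc12 1.76, adjusted p = 0.521; Slpi 1.08, adjusted p = 0.748). Spink4, a goblet cell inhibitor, read -0.66.

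Liver plasma proteins that are not serpins, set beside clade a, had 0 passing genes of 22 tested and a median of -0.03, with 11 below 0. At an unadjusted p under 0.05, 4 were lower (18.2%, beside 2.04% of all genes) and 0 higher (beside 2.03%). This list too was chosen with earlier results of these data known, so its count is no measure of enrichment. Apoc3, an apolipoprotein, read 14.11 ± 0.21 in WT and 13.10 ± 0.20 in KO (SD, n = 3), a difference of -1.01 (limma, adjusted p = 0.183). With the slide as a block Apoc3 read -0.78. Orm1, an acute phase glycoprotein, read -0.76, and Ttr, which like Serpina7 carries thyroxine, -0.52, without overlap.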

How the data were processed

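Gene expression of sorted mTECs was measured on 6 Agilent arrays. The authors' deposited matrix holds log2 values per probe in 3 WT and 3 KO columns; the sources used here do not name its tool. Of the authors' deposited statistics, the p-values served to count Serpin probes by FDR, and the log2 ratio, fold and score were not used. The deposited scanner intensity values came from Agilent Feature Extraction 10.7.3.1 per the file headers (10.6 per the submitters' processing notes). No depth exists for arrays, and 3 per group limit the precision.

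Groups followed the matrix column names. Genes were named by the matrix's Agilent symbol, with the brightest probe of each, kept where well above background on at least 3 of 6 scanner arrays (18636 genes). Differences were fitted with limma 3.58.1 (lmFit, eBayes; R 4.3.3) and adjusted over all kept genes, and the fit was tested on simulated data. An exact permutation test of 3 against 3 cannot go below 0.1. Members and lists were chosen with earlier results of these data known. Named were Mbd1, the Serpin genes of unadjusted p under 0.05 or among the 3 of smallest p or highest mean of a clade, and 3 genes per related list by smallest p; the other members, P4hb and the marker genes were named after their values were seen, to account for every member. Runs are serpin genes with at most 20 other RefSeq entries between neighbours; all 54 symbols matched RefSeq (GRCm38.p6), whose sequences are printed. The values of 1 member and 1 marker gene are not reported here. The matrix gives no build, so no probe positions are printed. Alternatives covered filters, probes, moderation, centring, slide, replicate number, columns left out and the scanner files under their titles.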

Additional observations from a re-analysis of the deposited data

How the results depend on the processing

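The count of 0 passing Serpin genes held under each of the 20 alternatives run, which covered filters, choice of probe, moderation, floor, centring, blocks, each column left out, both scanner fits and an adjusted p of 0.1. The median difference of the members (-0.12) stayed between -0.17 and -0.11 under the other filters, probe rules and centring; it was -0.04 with the slide as a block, between -0.20 and -0.10 with a column left out, and 0.11 (processed signal) and 0.02 (normexp) with the scanner files under their titles. With the replicate number as a block it was -0.12 and 21 genes passed in place of 17, but same-numbered columns did not deviate together (correlations of -0.315, -0.181 and -0.354), so they share only a number and no pairing was used. Over all genes, 17 passed in the reported fit, 0 with the slide as a block, 0 under the titles and 9 to 32 with a column left out. Mbd1 read -3.22 with the slide as a block (adjusted p = 0.0971), 1.59 under the titles and 0.84 under the titles with normexp. For Slpi the titles gave -0.62 and -0.63, and for Wfdc12 -0.57 and -0.67. Of the 20 named Serpin genes, 14 of the 19 with a value changed sign under the titles with the processed signal, where most matched columns carry the other genotype. Under at least 1 of the 17 other settings 9 changed sign. None of these genes was past the threshold in any fit. Counting outlier spots as not detected, chosen after seeing the data, left 50 members. Normexp used the median spot signal because the files hold no mean signal. Signal near background limits Serpinb3d (above it on 3 arrays) and Serpina3c, Serpinb9b, Serpinb9d and Serpinf2 (on 5).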
